A study of Saccharomyces cerevisiae with 2 samples.

Results

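The YRF1 genes are the 8 genes of the S. cerevisiae RefSeq annotation whose symbols begin with YRF1-, out of 6002 nuclear protein-coding genes. They were taken by name, with earlier results of these data known. Vid22 with a 13Myc tag was immunoprecipitated from cross-linked yeast cells with the anti-MYC antibody 9E10, and a wild type strain without a tag was the negative control. The labels list no antibody for the control, whereas the methods describe both strains as treated alike, so how the control was made is unclear. Both were pre-grown in YEP medium with sugar, diluted and grown again before cross-linking, and the strains of the study derive from the BY4741, BY4742 and BY4743 laboratory strains. DNA of 2 independent experiments was pooled before sequencing, so each condition has 1 library, and no test between samples or error between cultures can be given. The deposited list holds 811 Vid22 peaks on the sacCer3 assembly, called by MACS2 from reads of 50 bases that had a single best position in the genome.

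Yeast chromosomes end in tracts of telomeric TG repeats. Behind these lies an X element at every end and, at some ends, 1 or more copies of a longer Y' element, with further short TG tracts between the repeats. The X and Y' elements are repeats themselves, so a short read from one of them often has more than 1 possible origin. Y' elements carry the YRF1 genes, which encode an ATP-dependent DNA helicase, and they are known to multiply in cells that survive the loss of telomerase. Vid22 works in a complex with Env11 and with Tbf1, a Myb-domain protein that binds TAGGG-containing repeats at subtelomeres. G-quadruplexes (G4) are folded forms of guanine-rich DNA, and telomeric regions are rich in sequences that may form them.

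No deposited peak overlapped any of the 8 YRF1 genes, against 11.8% of all nuclear protein-coding genes that were overlapped, 7.32% of those within 20 kb of a chromosome end and 1.14% of the 264 with under 50% unique 50-mers (stretches of 50 bases found once in the genome). Within 2 kb of the gene, 5 of the 8 (62.5%) had at least 1 peak, namely YRF1-1, YRF1-2, YRF1-3, YRF1-4 and YRF1-6, and YRF1-5, YRF1-7 and YRF1-8 had none. The same window found a peak at 33.3% of all nuclear protein-coding genes at 31.7% of the 246 that lie within 20 kb of a chromosome end and at 28.4% of the 264. With peaks of a -log10 q of 9 or more alone, the YRF1 count stayed 5 and the share of all genes was 22.9%. Each of the 6 peaks lay before the gene start, on the side of the centromere, and none between the gene and the chromosome end. Behind all 8 genes, too few reads could be placed to reach even the lowest summit of the list. The same held inside the genes, apart from 137 bases of YRF1-2. The side of the peaks and the lack of overlap are thus not read as results on Vid22 binding. The 8 genes are copies of each other and share their Y' sequence, so they are not 8 independent observations.

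All 8 genes run toward the chromosome end, as the annotation gives them. YRF1-1 (YDR545W) spans chrIV:1526321-1531711 (forward strand), and 222 bp of assembled chromosome lie behind it. YRF1-2 (YER190W) spans chrV:571480-576525, with 349 bp behind it. YRF1-3 (YGR296W, chrVII:1084864-1090591) also has 349 bp behind it. YRF1-4 (YLR466W, chrXII:1067087-1071235) and YRF1-5 (YLR467W, chrXII:1072508-1077898) lie in tandem on the right arm of chromosome XII, at 6942 and 279 bp from the end. YRF1-6 (YNL339C, chrXIV:371-6098) and YRF1-7 (YPL283C, chrXVI:280-6007) lie on left arms and on the reverse strand. YRF1-8 (YOR396W) spans chrXV:1085473-1090863. The annotation gives YRF1-3, YRF1-6 and YRF1-7 a coding sequence of 2 parts separated by an intron, and the others a single exon.

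The copies were nearly identical in sequence. Over the 28 pairs, the identity of the best local alignment ran from 99.3% to 100%, with a median of 99.4%, across 4108 to 5728 aligned positions. Of these pairs 4 had no difference at all, since YRF1-1, YRF1-5 and YRF1-8 are the same over their whole 5391 bp and YRF1-3 equals YRF1-7 over 5728 bp. YRF1-6 differed from YRF1-3 at 2 positions of 5728. YRF1-2 stood nearest to YRF1-3 and YRF1-7, with 8 mismatches to each in 5046 positions. YRF1-4, the shortest copy at 4149 bp, shared 91% of its 50-mers with YRF1-1. The genes thus fell into 1 group of 3 identical copies, 1 group of YRF1-2, YRF1-3, YRF1-6 and YRF1-7, and YRF1-4 on its own.

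**Figure D1:**
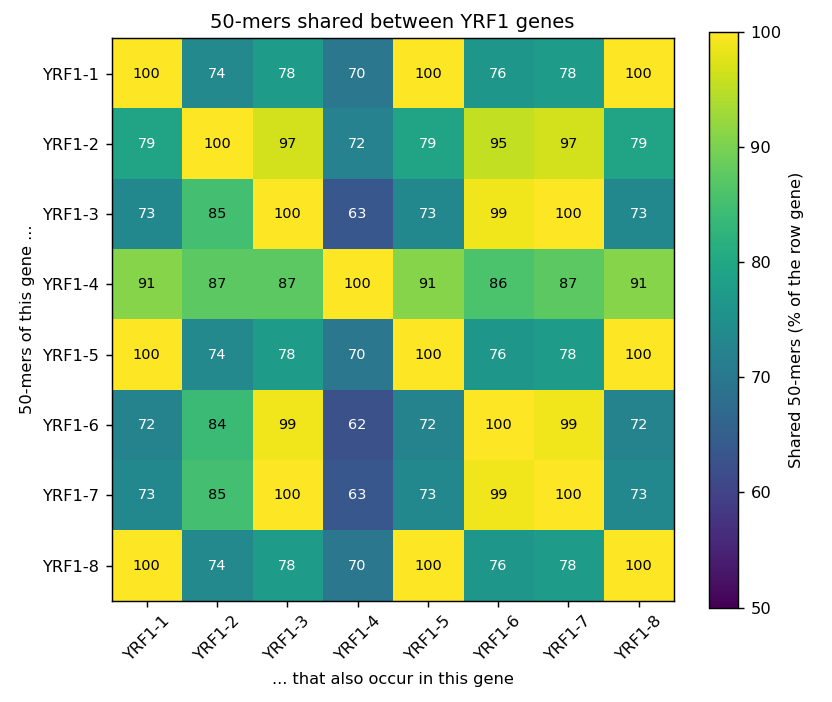
Share of the 50-mers of each YRF1 gene (rows) that also occur in each other YRF1 gene (columns), in percent of the row gene. YRF1-1, YRF1-5 and YRF1-8 share 100% with each other, as do YRF1-3 and YRF1-7, and the lowest value is the 62.4% of YRF1-6 found in YRF1-4.

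A stretch of 1330 bp occurs without any difference in all 8 genes, and 8 times in the nuclear genome. It begins 2330 bp after the start of YRF1-1 and 1088 bp after that of YRF1-4. Its first 60 bases, read from YRF1-4 at chrXII:1068175-1068234 on the forward strand, occur 16 times in the nuclear genome, so a read of 50 bases from here has many equal positions. They are shown as an example of sequence from which no read was kept.

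Shared by all 8 genes: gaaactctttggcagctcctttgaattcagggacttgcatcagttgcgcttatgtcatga

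Reads with more than 1 best position were dropped by the authors, so the share of positions that start a 50-mer found once in the genome shows where reads could be placed. Over the 8 genes 150 of 42552 positions did (0.353%), against a median of 100% over all nuclear protein-coding genes. YRF1-1, YRF1-3, YRF1-5, YRF1-6, YRF1-7 and YRF1-8 had no unique 50-mer, as had 92 of the 6002 genes. YRF1-2 had 100 (1.98%) and YRF1-4 had 50 (1.21%). A 50-mer of the genes occurred 14 times in the nuclear genome at the median, and 15 times in YRF1-4. The unique positions formed 3 runs of 50 starts, which begin 84 and 175 bp into YRF1-2 and 77 bp into YRF1-4. None of the 150 stayed unique when 1 mismatch was allowed. The run in YRF1-4 covers chrXII:1067164-1067262 and the first in YRF1-2 covers chrV:571564-571662, and both are printed since they are the only places inside YRF1 genes, beside the second run of YRF1-2, where a read could be placed.

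YRF1-4, unique run: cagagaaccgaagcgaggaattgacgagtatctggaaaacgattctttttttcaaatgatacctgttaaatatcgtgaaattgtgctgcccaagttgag
YRF1-2, first unique run: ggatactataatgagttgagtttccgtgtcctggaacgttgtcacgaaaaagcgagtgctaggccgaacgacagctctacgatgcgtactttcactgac

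The list gives no reads, but the numbers behind each summit can be inferred from it. MACS2 reports the fold enrichment as (scaled fragments + 1) / (control level + 1) and a Poisson p-value for the same pair. The pair was solved from these 2 values, given a scale fitted to the same list and a whole number of fragments. With the fragments of the Vid22-13Myc library scaled by 0.961, a whole number of extended fragments was found for all 811 peaks that gave the deposited -log10 p with a largest error of 0.000566. The control level came out as a whole number, within 0.01, at 554 of them. The lowest control level was 86.1, which MACS2 uses as its floor from the genome as a whole. The list held 123 to 632 fragments at its summits, with a median of 253.

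A fragment needs a unique read start, and after removal of duplicates each start on each strand gives at most 1. With reads extended to 316 bp, the width of the shortest peak, a base can thus be covered by at most 632 fragments, and 49 peaks had exactly this number. For any base the highest possible number, called the ceiling here, was counted from the unique 50-mers around it. Of the 811 peaks, 808 had no more fragments at the summit than their ceiling, and the other 3 exceeded it by at most 3. A base with a ceiling below 123 could not have reached the fewest fragments of any summit in the list, and bases at or above this number are called callable.

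The ceiling was 0 over the whole length of YRF1-1, YRF1-3, YRF1-5, YRF1-6, YRF1-7 and YRF1-8. It was 0 over 89.3% of YRF1-2 and 89.3% of YRF1-4, with a maximum of 159 and 100. YRF1-2 held 137 callable bases and the other 7 genes held none, as 143 of all 6002 genes did. No peak with the fewest fragments of the list could thus be placed inside 7 of the 8 genes, and at the 137 bases of YRF1-2 it would have needed 123 of at most 159 fragments. Whether Vid22 was bound inside these genes was not measured.

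**Figure D2:**
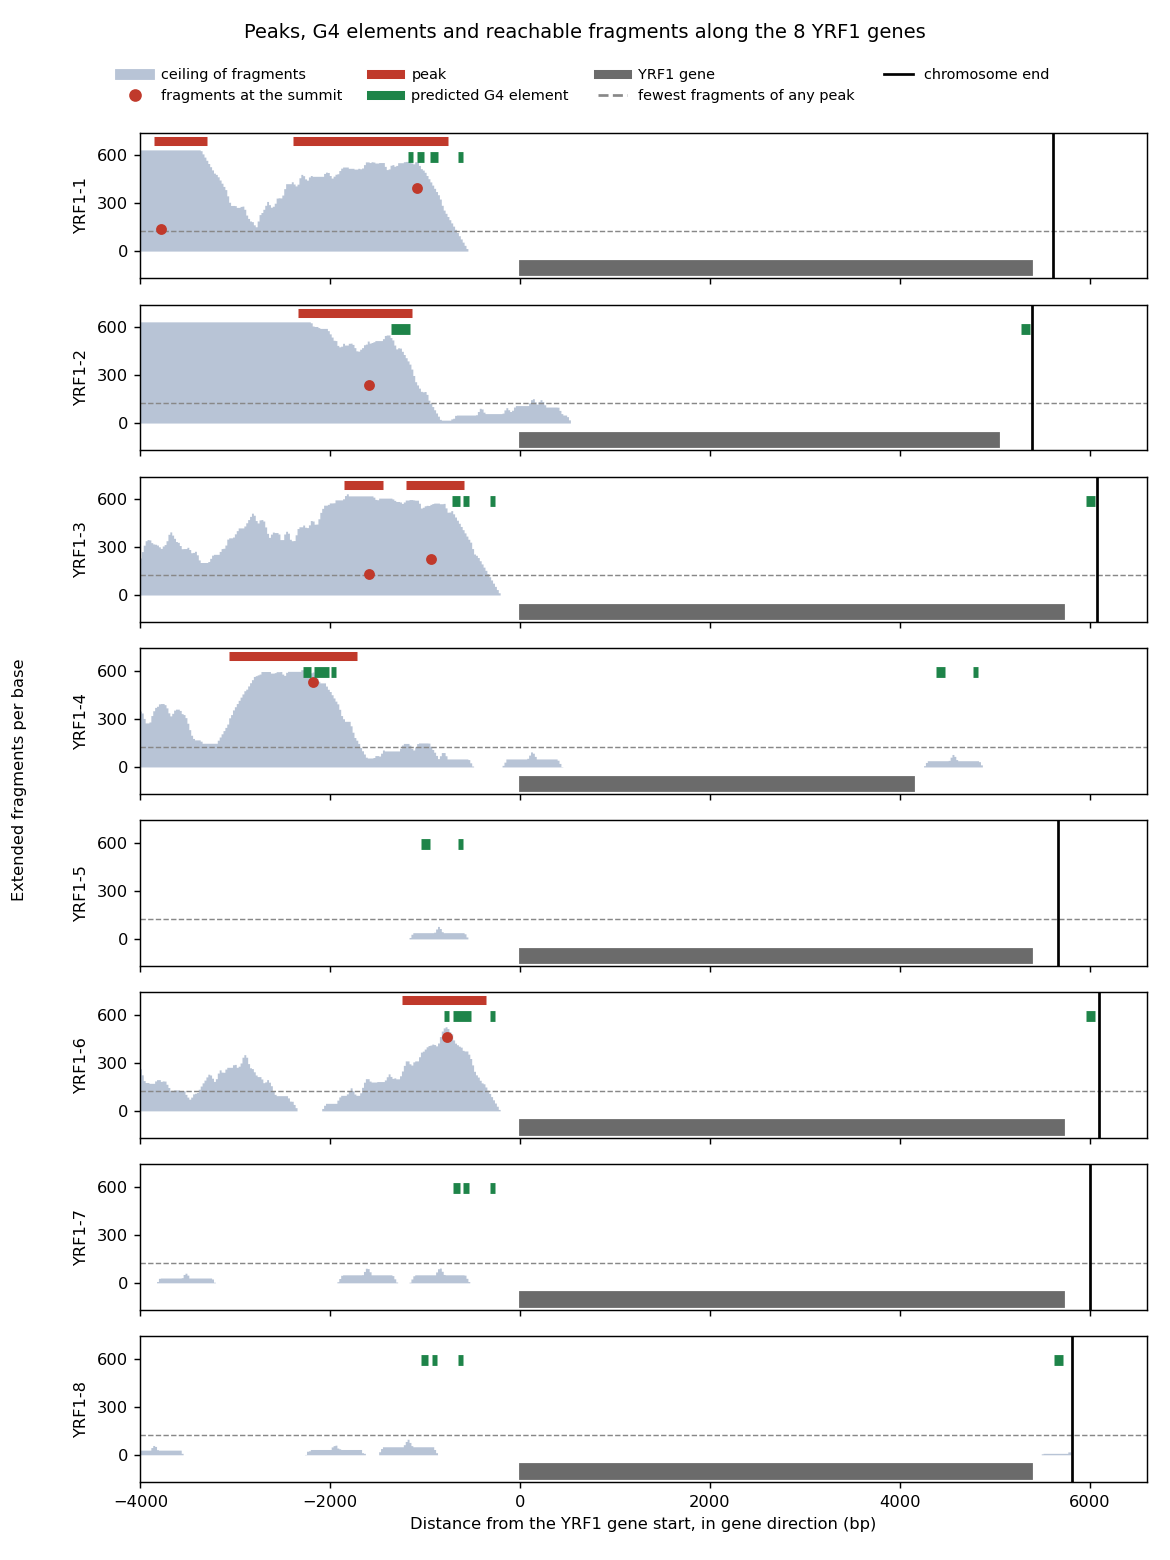
Map of the 8 YRF1 genes from 4000 bp before the gene start through the chromosome end (black line, outside the panel for YRF1-4), in gene direction, with distance from the gene start in bp on the x axis and extended fragments per base on the y axis. The blue area is the ceiling, red points are the fragments at each summit, red and green bars mark peaks and predicted G4 elements, and the dashed line is at 123 fragments. By the choice of the line, a summit can stand only where the blue area rises above it. The blue area does so before 5 of the genes and at 137 bases near the start of YRF1-2. The peak at the left edge of the first panel lies 3297 bp from YRF1-1, outside the 2 kb window.

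The sequence before the genes differed in the same respect. In the 2 kb before the gene start, YRF1-3 had 1672 callable bases, YRF1-6 1385, YRF1-1 1334, YRF1-2 1061 and YRF1-4 597. YRF1-5, YRF1-7 and YRF1-8 had none, with a highest ceiling of 78, 100 and 100. The 5 genes with callable bases there are the 5 with a peak. The 3 without callable bases had no peak, and by the definition of callable no summit could lie there. Behind the gene no copy had a callable base. For YRF1-7 and YRF1-8 the next peak of the list lay 49988 and 56468 bp away, and for YRF1-5 it was the peak of its tandem neighbour at 7138 bp.

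The peak with the highest enrichment belonged to YRF1-4. It spans chrXII:1064024-1065370 (1347 bp) with its summit at 1064908, which is 2179 bp before the gene start and 13269 bp from the chromosome end, and its edge is 1717 bp from the gene. With a fold enrichment of 3.39 it ranked 88 of 811, and its -log10 q was 115.1. The summit held 532 fragments (exact Poisson interval 488 to 579) against a control level of 150.0, and the ceiling there was 593, so 89.7% of the possible fragments were present. Of the positions in the peak, 84.1% start a unique 50-mer.

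The YRF1-6 peak on the left arm of chromosome XIV spans chrXIV:6454-7340 (887 bp). Its summit at 6863 lies 765 bp before the gene start and 6862 bp from the chromosome end. The fold was 2.94 (rank 91) with a -log10 q of 81.1, from 463 fragments (422 to 507) over a control level of 151.0. This is 89.4% of a ceiling of 518, and a summit filled to the ceiling would have had a fold of 3.28. Unique 50-mers start at 59.2% of its positions, the lowest share of the 6 peaks.

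The YRF1-1 peak spans chrIV:1523926-1525564 (1639 bp, the widest of the 6) with its summit at 1525235, 1086 bp before the gene and 6698 bp from the chromosome end. It had a fold of 2.70 (rank 100), a -log10 q of 60.1 and 397 fragments (359 to 438) over a control level of 141.0. The summit reached 71.1% of its ceiling of 558. The share of unique 50-mers in the peak was 78.3%.

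The peaks of YRF1-2 and YRF1-3 were lower and much alike. The YRF1-2 peak spans chrV:569142-570346 (1205 bp) with its summit at 569884, 1596 bp before the gene and 6990 bp from the chromosome end. Its fold was 2.49 with a -log10 q of 30.7, and 236 fragments (207 to 268) stood over a control level of 90.7. The nearer YRF1-3 peak spans chrVII:1083667-1084272 (606 bp) with its summit at 1083927, 937 bp before the gene and 7013 bp from the chromosome end. Its fold was also 2.49, with a -log10 q of 29.7 and 225 fragments (197 to 256) over the floor of 86.1. The counting intervals of these 2 summits overlap, and neither overlaps those of YRF1-1, YRF1-4 or YRF1-6. The intervals cover counting error only, and the ceilings and control levels differ, so they compare counts and not binding. They also take no account of the ceiling, which the summits of YRF1-4 and YRF1-6 come close to, so they are approximate. Unique 50-mers start at 85.5% and 90.4% of their positions, and the summits reached 45.9% and 39.5% of the ceiling.

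A second peak of YRF1-3, chrVII:1083009-1083416 (408 bp, summit 1083267), had a fold of 1.49, rank 597, and a -log10 q of 3.70. It is the only one of the 6 below a -log10 q of 9, the threshold as the methods write it. It held 134 fragments (112 to 159), or 21.6% of its ceiling of 619, and its summit and its nearer edge lie 368 and 219 bp outside the annotated telomeric region. A further peak, 3297 bp from YRF1-1 and beyond the 2 kb window, had a fold of 1.42.

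**Figure D3:**
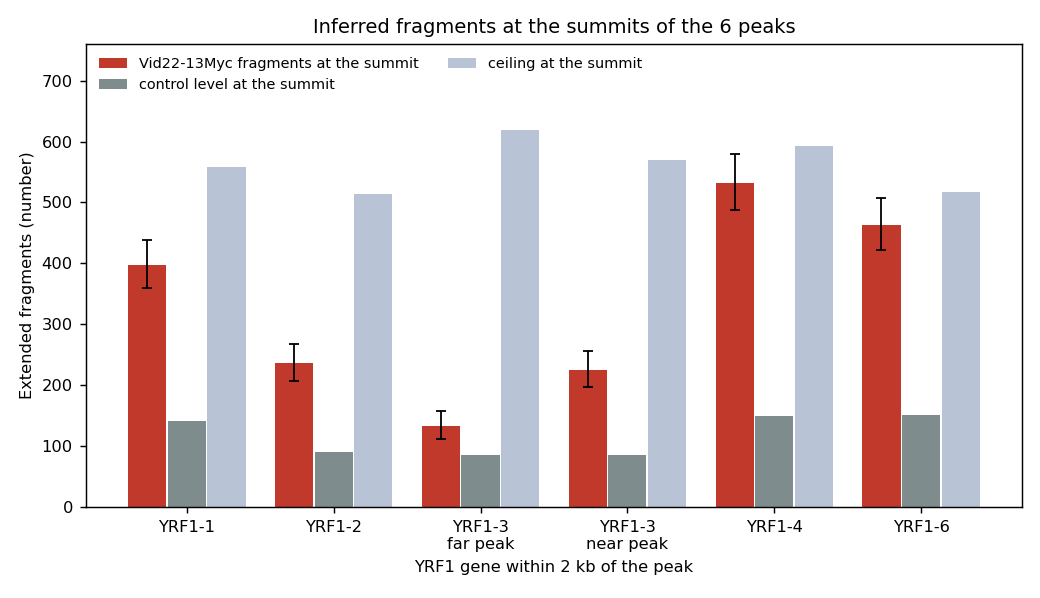
Inferred numbers of extended fragments at the summits of the 6 peaks within 2 kb of a YRF1 gene (red, with 95% exact Poisson intervals that cover counting error only), the control level (grey) and the ceiling set by unique sequence (blue). The fragments before YRF1-4 and YRF1-6, 532 and 463, come closest to their ceilings of 593 and 518, and the far peak of YRF1-3 has 134 of 619.

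Over the 6 peaks the median fold was 2.59 against 1.64 over all 811, and the median width was 1046 bp against 489 bp. The 811 reach down to a -log10 q of 1.34, while 5 of the 6 have one of at least 20. The summits reached 58.5% of their ceiling at the median, against 42.2% over all peaks. The highest fold of the list, 6.98, belongs to summits filled to 632 fragments over the control floor. At the 6 summits a full ceiling would have given folds of 3.28 to 6.84. The control levels of 141.0, 150.0 and 151.0 before YRF1-1, YRF1-4 and YRF1-6 are above the floor, where those of YRF1-2 and YRF1-3 lie at or near it. A fold ranks these peaks by fragments and control level together, and folds of unlike ceilings are not on the same scale.

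The summits lay in a like part of the telomeric region, but few of its bases could hold a summit. In the 5 YRF1 regions with a peak, 901 to 1403 bases were callable. None of these lay behind a gene, and inside the genes only YRF1-2 had any. Where a summit could lie was thus limited by where reads could be placed, and the part of this in the place of the summits was not tested. The annotation gives each chromosome end a region that begins, on the side of the centromere, with the X element. Counted from this boundary, the summits of YRF1-2 and YRF1-3 (near peak) lay 285 and 292 bp inside, and those of YRF1-6, YRF1-1 and YRF1-4 lay 565, 610 and 627 bp inside. The distance from the gene start varied more, from 765 to 2179 bp. On the side of the gene, the peaks of YRF1-6, YRF1-1 and YRF1-2 ended 22, 90 and 194 bp before the last callable base, and the near peak of YRF1-3 ended 263 bp before it. The YRF1-4 peak ended 783 bp before it. In the annotation the YRF1-2 peak overlaps the replication origin ARS523 and the small gene YER188C-A, the near YRF1-3 peak overlaps the putative origin ARS736, and the peaks of YRF1-1, YRF1-4 and YRF1-6 overlap the telomeric region alone.

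The sequences at the summits of YRF1-2 (chrV:569784-569984) and YRF1-3 (chrVII:1083827-1084027) are printed from 100 bases before to 100 bases after the summit, on the forward strand, since these 2 summits are alike in fold and in place and still held unique 50-mers. TAGGG is in capitals. It begins 41 and 33 bases after the summit.

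YRF1-2 summit: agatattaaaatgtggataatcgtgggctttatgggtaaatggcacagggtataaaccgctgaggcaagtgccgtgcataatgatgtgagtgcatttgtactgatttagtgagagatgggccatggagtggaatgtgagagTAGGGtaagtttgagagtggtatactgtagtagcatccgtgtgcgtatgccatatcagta
YRF1-3 near summit: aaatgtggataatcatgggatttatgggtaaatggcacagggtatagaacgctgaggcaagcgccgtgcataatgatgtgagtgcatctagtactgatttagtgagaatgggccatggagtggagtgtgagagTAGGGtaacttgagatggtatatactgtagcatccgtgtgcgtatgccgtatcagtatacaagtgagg

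TAGGG, searched on both strands, lay within 100 bp of the summit in 5 of the 6 peaks, all but the far peak of YRF1-3. It did so in 25.6% of all peaks, and 14.3% of all nuclear windows of 201 bp hold it. Of the 9 further peaks near other Y' genes (below), all but those near YEL076C and YHL049C had it this near. The longer TTAGGG, which contains TAGGG, lay within 100 bp of none of the 6 summits, against 12.5% of all peaks and 4.59% of windows. Farther from the summit it does occur inside the peaks of YRF1-4 and YRF1-6, in a G4 element of each. It was not counted over whole peaks. TAGGG was also present where too few reads could be placed for a peak to be listed. Nothing can be read from the lack of a peak there. The 2 kb before YRF1-7 held 7 TAGGG sites, those before YRF1-5 and YRF1-8 held 6 each, and the 8 genes themselves, where YRF1-2 alone has callable bases, held 5 to 7.

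Predicted G4 elements, taken as at least 4 tracts of GGG on a strand with loops of 1 to 25 bases, lay within 200 bp of 5 of the 6 peaks, again all but the far peak of YRF1-3. Among all 811 peaks 12.9% lay so near. Of the 9 further peaks near other Y' genes (below), all but those near YBL113C, YEL076C and YHL049C overlapped an element. In each of the 5 YRF1 peaks near an element, at least 1 element was inside the peak. The summits of YRF1-1 and YRF1-6 fell within an element, that of YRF1-4 was 13 bp from one, and those of YRF1-3 (near peak) and YRF1-2 were 221 and 241 bp away. With loops of at most 7 bases only the peaks of YRF1-4 and YRF1-6 kept an element within 200 bp.

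The elements closest to these summits are printed on the guanine-rich strand, with each run of 3 or more guanines in capitals. Those of YRF1-1 (chrIV:1525235-1525309), YRF1-2 (chrV:570125-570314), YRF1-3 (chrVII:1084148-1084229) and YRF1-4 (chrXII:1064921-1065069) are on the forward strand, and that of YRF1-6 (chrXIV:6844-6898) is on the reverse strand. Each occurs once in the nuclear genome. They are built of the same short units, such as GGGtaa, in different order and number.

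YRF1-1 summit element: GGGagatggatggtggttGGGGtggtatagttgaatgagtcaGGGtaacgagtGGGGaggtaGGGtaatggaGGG
YRF1-2 nearest element: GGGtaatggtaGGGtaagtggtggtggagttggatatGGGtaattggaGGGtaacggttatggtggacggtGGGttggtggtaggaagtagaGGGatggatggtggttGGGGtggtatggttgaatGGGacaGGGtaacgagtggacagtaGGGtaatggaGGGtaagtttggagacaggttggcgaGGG
YRF1-3 nearest element: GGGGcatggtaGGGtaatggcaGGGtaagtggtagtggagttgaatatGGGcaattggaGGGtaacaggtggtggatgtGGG
YRF1-4 nearest element: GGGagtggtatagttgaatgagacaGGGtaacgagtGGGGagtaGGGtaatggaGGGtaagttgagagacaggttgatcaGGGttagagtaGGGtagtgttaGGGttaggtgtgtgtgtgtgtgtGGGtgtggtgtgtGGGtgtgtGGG
YRF1-6 summit element: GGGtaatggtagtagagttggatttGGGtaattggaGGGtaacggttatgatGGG

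In all, 26 elements lay within 2 kb of a YRF1 gene or in one of its peaks. None overlapped a gene, and all 26 had their guanine tracts on the coding strand of the neighbouring YRF1 gene. All 8 genes run toward the chromosome end and several elements are copies of 1 sequence, so these are not 26 independent observations. Of the 26 elements, 22 lay before a gene start and 6 behind a gene, with 2 between YRF1-4 and YRF1-5 counted in both. The nearby peaks overlapped 11 of the 26, of which 10 lay wholly in the peak, and 2 of the 11, at YRF1-4, are farther than 2 kb from the gene and belong to the set only through the peak. Of the 24 within 2 kb, 9 held a callable base and a peak overlapped each of these 9, with a highest ceiling of at least 408. The other 15 had a highest ceiling of 111 or less, under the 123 fragments of the weakest summit, so no peak could be listed there. The share of all 635 predicted elements that a peak overlaps was not counted. All 5 YRF1 regions with a callable base held a peak, so the 9 of 9 is not read as a match of peaks to elements.

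Among the 15 elements outside peaks were 2 repeated ones. An element of 50 bases occurred 9 times in the nuclear genome and 6 times near a YRF1 gene. It began 652 bp before the start of YRF1-1, YRF1-5 and YRF1-8 and 317 bp before that of YRF1-3, YRF1-6 and YRF1-7. An element of 95 bases occurred 8 times in the genome, 5 of them 233 bp behind a YRF1 gene, and holds 3 TAGGG. YRF1-7 and YRF1-8 also had 2 elements each before the gene, of 67 and 58 bases, with the same sequence in both genes. The first 3 of these 4 sequences are printed as they stand in YRF1-8, at chrXV:1084821-1084870, chrXV:1091096-1091190 and chrXV:1084433-1084499 on the forward strand.

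Element of 50 bases before the gene: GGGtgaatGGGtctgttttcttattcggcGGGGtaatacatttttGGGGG
Element of 95 bases behind the gene: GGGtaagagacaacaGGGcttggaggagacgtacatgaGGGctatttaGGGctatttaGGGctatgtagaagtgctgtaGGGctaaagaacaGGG
Element of 67 bases of YRF1-7 and YRF1-8: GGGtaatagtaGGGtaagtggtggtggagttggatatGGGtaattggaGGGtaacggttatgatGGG

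The last of these has 3 copies in the genome and a highest ceiling of 50, where the element in the YRF1-2 peak has 1 copy and a highest ceiling of 529. The Y' elements and X elements of the strain used may differ in number and sequence from the reference, and the part of this in the values was not tested.

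The ends with YRF1 genes were set beside the other chromosome ends. Of the 7 annotated telomeric regions with a YRF1 gene, 5 had a callable base and all 5 held a peak, and the 2 without a callable base (those of YRF1-7 and YRF1-8) held none. Of the 10 regions with a Y' element and no YRF1 gene, 8 had a callable base and 6 of these held a peak. Of the 15 regions without a Y' element, 14 had one and 13 of these held a peak. Together 24 of 27 regions with callable bases held a peak. The other 5 held none, and by definition no summit could lie there. The highest fold in a region had a median of 2.70 over the 5 YRF1 ends with a peak, 2.25 over the 6 other Y' ends and 1.74 over the 13 without a Y' element. The ranges overlap, from 2.49 to 3.39, from 1.68 to 3.44 and from 1.43 to 2.71, and the ceilings differ between them. The summit of highest fold lay 313 to 781 bp inside the region at the 13 ends without a Y' element and 285 to 627 bp inside at the 5 YRF1 ends. Regions without a Y' element are only 431 to 1098 bp long, so their summits could not lie much farther inside. At the 6 other Y' ends it lay 129 to 706 bp inside at 4, and 5413 and 6268 bp inside at the other two.

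**Figure D4:**
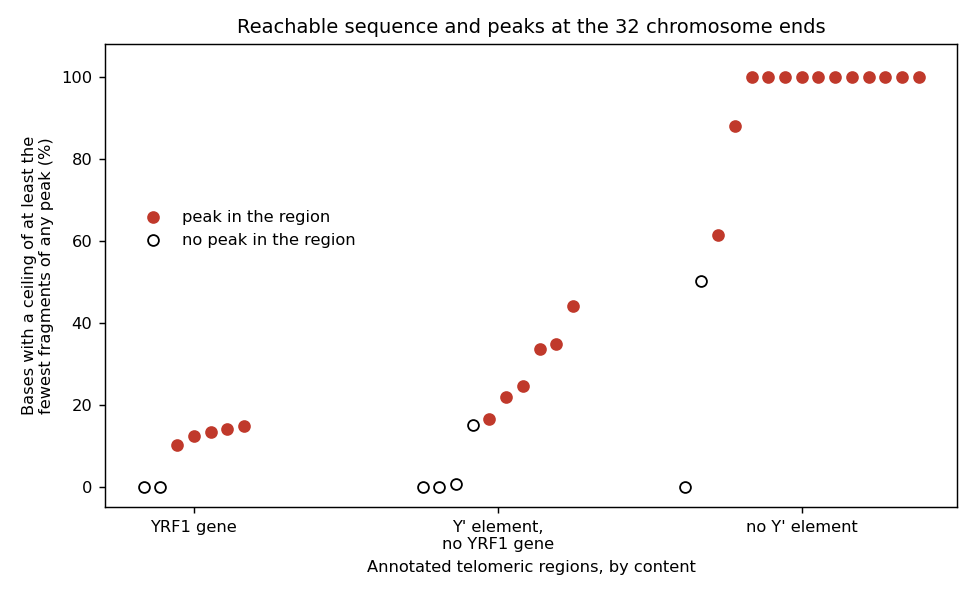
Percent of the bases of each of the 32 annotated telomeric regions (1 point each) with a ceiling of at least 123 fragments, for the 7 with a YRF1 gene, the 10 with a Y' element but no YRF1 gene and the 15 without a Y' element, with regions that hold a peak in red. The 5 YRF1 regions with a peak have 10.1% to 14.8% of their bases above this number, and the 2 without have 0.

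Y' elements also hold shorter genes and pieces of the helicase gene. By sequence, 27 further nuclear protein-coding genes shared at least 50% of their 50-mers with a YRF1 gene, with a median of 0.108% unique 50-mers, and 21 of them had no callable base. A peak lay within 2 kb of 16 of the 27 (59.3%), beside the 62.5% of the YRF1 genes and the 33.3% of all genes. Only YBL113C, at the left end of chromosome II, was overlapped by a peak, which had a fold of 2.86 and 282 of 283 possible fragments at its summit. The genes near a peak of their own ends were YBL111C (fold 3.03), YEL076C-A, YEL076C and YEL075C (2.38), YFL066C, YFL065C and YFL064C (3.44), YHL050C (2.11), YHL049C (1.99), YHR218W (1.68), and YLL067C and YLL066C (1.78). YHL050C was also near the YHL049C peak, and YLL066C near a further peak with a fold of 1.62. YER189W shares the peak of YRF1-2, and YLR462W and YLR464W share that of YRF1-4.

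Genes of related roles lacked this limit, with a median of 100% unique 50-mers. Of 10 other DNA helicase genes, among them SGS1 and PIF1, whose products unwind G4 DNA, 3 had a peak within 2 kb and none was overlapped. Of 15 genes for telomerase, telomere capping and telomeric silencing, 6 had a peak within 2 kb. Of these only TEN1, which encodes a subunit of the Cdc13-Stn1-Ten1 cap, was overlapped, by a peak with a fold of 2.55. These shares, 3 of 10 and 6 of 15, stand beside 33.3% over all genes.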

How the data were processed

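ChIP-seq of Vid22-13Myc was compared by the authors with an untagged control, 1 library each from 2 pooled experiments. Per the methods and the labels, the authors aligned reads with Bowtie, kept single best positions, removed duplicates with SAMtools and called peaks with MACS2 on sacCer3, without stated versions. The deposited list gives, at each summit, the fold enrichment (a ratio to the control level), the -log10 p and -log10 q, and an integer score that the authors' MACS2 run wrote as -log10 q times 10. All 811 peaks were used, and 445 have a -log10 q of at least 9. The paper reports a smaller set of peaks, with a threshold on the false discovery rate, and its number equals neither count. Reads were not used here, and no test was made, since there are no replicates.

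From these values and the sacCer3 RefSeq sequence (R64, the same chromosome accessions) were computed gaps between peaks and genes, 50-mers found once on either strand, G4 elements, fragments at each summit and ceilings. Fragments were solved as whole numbers from fold and -log10 p, and 71 peaks had another whole number within 0.005 of the deposited -log10 p. The choice of fragments and ceilings was made after the list was seen. Intervals (95%) are Poisson intervals that cover counting error only and take no account of the ceiling. The calculations were tested on simulated data, with the scale of the fragments known and a narrower range of control levels than in the list. The fit of the scale was not tested. The members and lists were chosen with earlier results of these data known. Named were the 8 genes, every peak within 2 kb, Y' genes sharing 50-mers with a peak within 2 kb, and helicase or telomere genes overlapped by a peak. Protein sequences were not used here. The tools were biopython 1.88, scipy 1.17.1, pandas 2.3.3, numpy 2.4.6 and matplotlib 3.10.9 under Python 3.11.15.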

Additional observations from a re-analysis of the deposited data

How the results depend on the processing

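The 5 YRF1 genes with a peak stayed 5 when a -log10 q of 9 or of 20 was required and within 5 kb, and the 6 peaks became 5, 5 and 7. When overlap with the gene was required, both counts were 0, and no median fold could be given. The median fold stayed within 2.49 and 2.70. Of the 5 peaks within 200 bp of a G4 element, 2 remained with loops of 1 to 7 bases and 4 with loops of 1 to 12. The unique share of YRF1 positions was 0.254% for 36-mers, 0.745% for 100-mers and 0 with up to 1 mismatch, The 16 of 27 Y' genes with a peak stayed 16 at 10% shared 50-mers and with a -log10 q of 9 required. The count of 1 YRF1 gene with a callable base became 2 with the fewest fragments set just above the control level, and 2 with an extension of 200 bases and the fewest fragments scaled down with it, both chosen after the data were seen. No paired analysis was possible because each condition has 1 library and only 1 has a peak list. Where the ceiling is 0, no read is kept at any depth, so the list gives no value there.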
